A study of Homo sapiens with 4 samples.

Results

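HOX genes encode homeodomain transcription factors, proteins that bind DNA through a homeodomain and set the identity of body segments along the head-to-tail axis. In humans they lie in 4 clusters, HOXA on chromosome 7, HOXB on chromosome 17, HOXC on chromosome 12 and HOXD on chromosome 2, and genes at matching places in the clusters form 13 paralog groups, numbered from the group that acts nearest the head to the group that acts nearest the tail. Groups 1 to 3 pattern the hindbrain and pharyngeal arches, the central groups pattern the neck and thorax, and groups 9 to 13 pattern the lower trunk, limbs and urogenital tract. Polycomb complexes keep these clusters silent, trithorax complexes keep them active, retinoic acid turns on their head-side genes, and many HOX proteins bind DNA together with PBX and MEIS proteins of the TALE family. In adult tissues and in tumours each cell type keeps its own pattern of active HOX genes.

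The members were the non-control probes whose accession belonged to a protein-coding gene named HOXA, HOXB, HOXC or HOXD with a number from 1 to 13. Antisense genes were left out. The rule used no measured value, though it was set with earlier results of these data known. This gave 43 of the 34127 probes on the array, for all 39 genes of that kind in the RefSeq table, of 19483 genes that had a probe named in this way. Of these genes, 35 had 1 probe and 4 (HOXA9, HOXA10, HOXB2 and HOXD9) had 2.

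The cells were HuCCT1, a human cell line from an intrahepatic cholangiocarcinoma, a cancer of the bile ducts within the liver. They received 1 of 4 transfections at 30 nM: Pre-miR-376c, which mimics the mature microRNA miR-376c-3p, Pre-miR negative control, siGRB2, which is a short interfering RNA against the EGF receptor adaptor GRB2, or siRNA negative control, a non-silencing duplex. From 24 h after transfection all 4 cultures were kept for 24 h with 5 ng/ml EGF in 0.1% serum, so no array shows cells without EGF or without transfection. Each condition was measured on 1 one-colour array with no replicate, so no test between conditions was possible, and no p-value and no SD of a condition is given. The mature sequence that the mimic stands for is shown to identify the treatment, with the seed (bases 2 to 8, the part that pairs with target RNAs) in capitals. It comes from RefSeq (GRCh38.p14, chr14:101039732-101039752, plus strand).
hsa-miR-376c-3p: aACAUAGAggaaauuccacgu

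A level is the log2 of a probe's background-corrected signal minus the log2 of the 75th percentile signal of its array. A level of 0 is thus a signal at that percentile, and levels of different probes cannot be ranked against each other. A probe was detected when the scanner software called its signal well above background on more than 0.5 of its spots, and a gene was detected when any of its probes was. GRB2, the target of the siRNA, had levels of 0.07 with Pre-miR-376c, 0.62 with Pre-miR negative control, -0.65 with siGRB2 and -0.10 with siRNA negative control. It was 1.47-fold lower with siGRB2 than with siRNA negative control, 2.42-fold lower than with Pre-miR negative control, and 1.65-fold lower with siRNA negative control than with Pre-miR negative control. The siRNA negative control array stood apart. Of the 21239 probes detected on all 4 arrays, 75.4% had their highest or lowest level on it. Any array of 4 holds the highest or lowest level of many probes, and this share was not computed for the other 3. In pairs with the siRNA negative control array 7.26% to 9.82% of probes were at least 2-fold apart, and in the other pairs 2.9% to 3.04%. It also had the lowest 75th percentile signal, 1719 against 1995 to 2689 on the other 3. The main HOX results that use this array are therefore given with values against Pre-miR negative control as well. The part of the array itself in these differences was not tested.

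Markers of the labelled cell type were checked first. Of 10 biliary epithelium markers, 9 were detected on all 4 arrays, among them the duct keratins KRT7 (levels 7.65 to 8.09) and KRT19 (7.98 to 8.49) and the epithelial adhesion protein EPCAM (5.35 to 5.67), and SPP1 was detected on none. Of 8 hepatocyte markers, ALB, APOB, TTR, HNF4A and TAT were detected on no array. SERPINA1 (levels 1.80 to 2.27) was detected on all 4. So was APOA1 by a probe at -4.32 to -3.77, while its other probe was detected on none. Of 8 fibroblast markers, COL1A2, COL3A1, PDGFRB and DCN were detected on none, and COL1A1, LUM, ACTA2 and DES on all 4. Of 4 endothelial markers KDR was detected on none and CDH5 and VWF on all 4. Of 5 leukocyte markers with a probe, PTPRC (by some of its probes only), CD14 and ITGAM were detected on all 4. The log2 of the summed signals over each list lay between 9.58 and 9.94 for biliary epithelium, 1.83 and 2.30 for hepatocytes, -0.80 and -0.38 for fibroblasts, -1.57 and -1.30 for leukocytes and -2.28 and -1.81 for endothelium. The lists hold different probes in unequal number, so a sum can be compared between arrays and not between lists. The lowest sum was on the siRNA negative control array for all but the biliary list. The part of these shifts in the HOX differences was not tested.

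HOX detection in HuCCT1 cells lay mostly in HOXA and HOXB. HOX genes detected on all 4 arrays numbered 16 of 39, with 7 of 11 in HOXA, 7 of 10 in HOXB, 2 of 9 in HOXC and 0 of 9 in HOXD. A further 6 genes were detected on some arrays, so that 22 were detected on at least 1 and 17 on none. By probe, 16 of the 43 HOX probes were detected on all 4 arrays, beside 62.2% of all 34126 probes with a usable spot, and 20 were detected on no array, beside 27% of all probes.

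**Figure D1:**
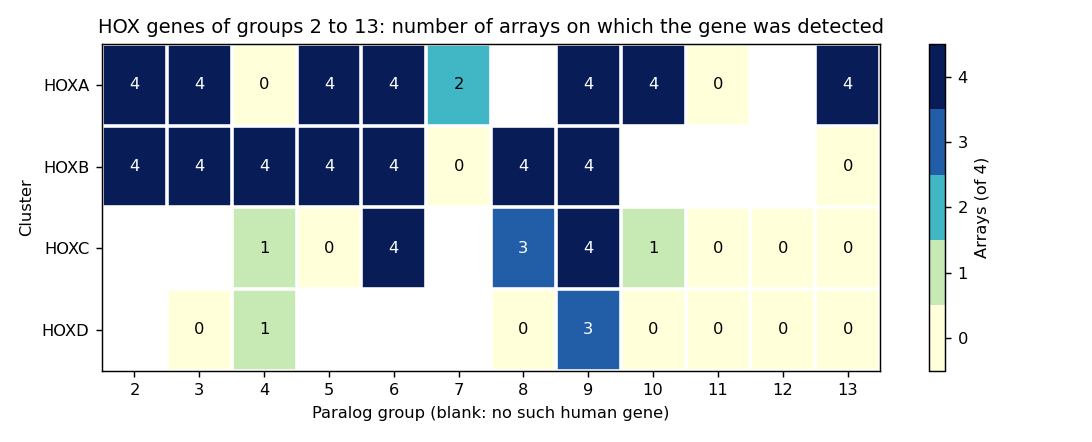
Number of arrays, of 4, on which each HOX gene of groups 2 to 13 was detected, with the clusters as rows and the paralog groups 2 to 13 as columns; blank cells have no human gene. The dark cells, detected on all 4 arrays, lie mostly in HOXA and HOXB, with HOXC6 and HOXC9 in HOXC, and HOXD has none.

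In HOXA the genes detected on all 4 arrays were HOXA2, HOXA3, HOXA5, HOXA6, HOXA9, HOXA10 and HOXA13. In HOXB they were HOXB2, HOXB3, HOXB4, HOXB5, HOXB6, HOXB8 and HOXB9, and in HOXC they were HOXC6 and HOXC9. HOXC8 was detected on 3 arrays (not with siRNA negative control) and so was HOXD9 (not with siGRB2). HOXA7 was detected on both negative control arrays and on neither treated array. HOXC4 was detected with Pre-miR-376c alone, and HOXC10 and HOXD4 with Pre-miR negative control alone. The genes detected on no array included HOXA4, HOXA11, HOXB1, HOXB7, HOXB13, HOXC5, HOXC11, HOXC12, HOXC13, HOXD1, HOXD3, HOXD8, HOXD10, HOXD11, HOXD12 and HOXD13. Across these and the undetected probes of other HOX genes the signal was 4.30 to 24.1 scanner units, and the dimmest spot called well above background measured 21.2 to 24.4 on each array. For such genes only an upper bound on the probe's signal is known, which need not bound the gene. Of the HOXA10 probes, A_24_P77904 was detected on no array, while A_33_P3288649 lay above the 75th percentile on all 4. Every HOX gene detected on no array had only 1 probe. Such a gene may still be transcribed, at a low level or above it. Whether its probe can detect the transcript was not tested.

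By paralog group, every member of group 2 (2 of 2) and of group 6 (3 of 3) was detected on all 4 arrays. Group 9 had 3 of 4, groups 3 and 5 had 2 of 3 each, groups 8 and 10 had 1 of 3 each, and groups 4 and 13 had 1 of 4 each. Of groups 2 to 13, groups 7, 11 and 12 had no gene detected on all 4 arrays. At the tail-side end of HOXA, HOXA10 and HOXA13 were detected on all 4 arrays and HOXA11, which lies between them, on none. HOXA10 and HOXA11 act in the uterus and limb, and HOXA13 in the digits and urogenital tract.

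The promoters of these neighbours are shown because their detection differs, and that of HOXA7 because it was detected on the negative control arrays alone. They are RefSeq windows of GRCh38.p14, from 250 bases before to 50 bases after a start site. CG dinucleotides, the bases that DNA methylation marks, are in capitals. HOXA10 has a second window, not printed. The windows lie at chr7:27179812-27180111 (HOXA10), chr7:27185183-27185482 (HOXA11), chr7:27200042-27200341 (HOXA13) and chr7:27156626-27156925 (HOXA7), all on the minus strand.
HOXA10: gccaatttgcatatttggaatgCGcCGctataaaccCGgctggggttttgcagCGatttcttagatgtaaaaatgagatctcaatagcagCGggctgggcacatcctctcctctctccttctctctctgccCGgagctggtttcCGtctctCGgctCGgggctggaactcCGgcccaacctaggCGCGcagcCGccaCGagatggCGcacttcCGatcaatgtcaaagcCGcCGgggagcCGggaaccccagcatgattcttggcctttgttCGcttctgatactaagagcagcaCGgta
HOXA11: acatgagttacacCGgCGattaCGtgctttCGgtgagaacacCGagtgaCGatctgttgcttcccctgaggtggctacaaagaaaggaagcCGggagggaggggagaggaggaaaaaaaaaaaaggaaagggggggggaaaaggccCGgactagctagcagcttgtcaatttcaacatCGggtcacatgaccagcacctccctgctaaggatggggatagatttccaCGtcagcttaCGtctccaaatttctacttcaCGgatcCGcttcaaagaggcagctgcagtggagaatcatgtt
HOXA13: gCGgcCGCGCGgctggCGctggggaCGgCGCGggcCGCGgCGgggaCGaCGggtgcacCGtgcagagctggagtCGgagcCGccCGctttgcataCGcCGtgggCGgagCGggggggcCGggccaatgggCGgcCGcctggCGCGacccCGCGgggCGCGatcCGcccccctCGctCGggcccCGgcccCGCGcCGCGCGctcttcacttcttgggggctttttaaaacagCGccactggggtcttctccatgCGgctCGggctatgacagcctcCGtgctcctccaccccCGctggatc
HOXA7: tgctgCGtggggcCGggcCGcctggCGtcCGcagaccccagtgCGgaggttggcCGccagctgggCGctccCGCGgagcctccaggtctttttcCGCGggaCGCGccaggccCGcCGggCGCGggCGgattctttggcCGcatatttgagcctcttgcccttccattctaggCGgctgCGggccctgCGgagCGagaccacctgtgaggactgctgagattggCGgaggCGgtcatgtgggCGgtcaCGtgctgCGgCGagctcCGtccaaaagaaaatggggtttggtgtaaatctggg

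The HOXA10 window holds 21 CG dinucleotides, the HOXA11 window 13, the HOXA13 window 44 and the HOXA7 window 31. Over all 35116 windows of the table the median is 14. Windows were matched for 20 of the 39 HOX genes, 27 windows in all with a median of 22. HOXC4 and HOXC5 share the same window, which was counted for each, and HOXA3 has 7 windows. Taking the first window of each gene, the median was 21.5 (11 to 44) for 6 genes detected on all 4 arrays. It was 24 (11 to 36) for 11 genes detected on none, so the 2 sets overlap nearly throughout. The 6 genes all lie in HOXA and most of the 11 in HOXD. No HOXB or HOXC gene detected on all 4 arrays had a window, so detection and cluster cannot be told apart here. A TATA box written TATAAA, searched on both strands, was in 5 of the 27 HOX windows (HOXA3, HOXA9, HOXA10 in both of its windows, and HOXD13), beside 11.5% of all windows. The AP-1 motif TGANTCA, a sequence that EGF signalling acts through in many genes, was in 0 of 27, beside 7.71% of all windows. The PBX-HOX motif TGATTNAT was in 2 of 27 (HOXA2 and HOXD11), beside 2.82%. A match describes these letters in this window and nothing about binding.

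The levels of the genes detected on all 4 arrays follow, each in the order Pre-miR-376c, its control (Pre-miR negative control), siGRB2 and its control (siRNA negative control). Of these 16 probes, 5 (HOXA3, HOXA10, HOXB5, HOXB6 and HOXB9) lay above the 75th percentile on every array and 11 below it on every array. HOXA2, which gives the hyoid arch its identity, had levels of -2.10, -1.85, -1.91 and -1.67. HOXA3, needed for the thymus and parathyroid, had 0.62, 1.04, 0.85 and 0.94. Both were lowest with Pre-miR-376c. HOXB3, a hindbrain gene, had -0.43, -0.18, -0.35 and -0.77, with its lowest level on the siRNA negative control array. HOXB2, which specifies hindbrain segments and the facial nerve, had -4.00, -3.87, -4.53 and -3.26 by probe A_23_P107283, the one all 4 arrays detected, with the highest level on the siRNA negative control array and the lowest with siGRB2.

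In the central groups, HOXB4, known for expanding blood stem cells, had -2.89, -2.84, -2.89 and -2.97. Its levels differed least of the 16, by 0.05 over the 3 arrays other than siRNA negative control. HOXA5, which acts in lung development, had -4.84, -4.99, -4.93 and -5.86. HOXB5, a gene of the lung and enteric nervous system, had 1.28, 1.42, 1.61 and 1.29. HOXA5 was lowest on the siRNA negative control array, 0.87 below Pre-miR negative control, whereas for HOXB5 that array fell among the rest. The group 6 genes, which pattern the thoracic skeleton, ranked the 4 arrays in the same order. HOXA6 had -6.25, -5.71, -5.75 and -5.24. HOXB6 had 3.23, 3.53, 3.44 and 3.87, and HOXC6 had -2.33, -1.93, -2.01 and -1.91. All 3 were lowest with Pre-miR-376c and highest on the siRNA negative control array, in HOXC6 by only 0.02 over Pre-miR negative control. HOXB8, which can hold myeloid progenitors in an undifferentiated state, had -5.17, -4.85, -5.64 and -5.70.

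In groups 9 to 13, HOXA9, a transcription factor of blood progenitors and a driver of acute myeloid leukaemia, had -1.95, -2.15, -1.84 and -3.29. The first 3 values lie close together and the siRNA negative control array lies apart below them. HOXB9, which patterns the thorax, had 1.07, 1.43, 1.53 and 1.20, and HOXC9, which specifies thoracic motor neurons, had -4.61, -4.88, -4.47 and -4.27. HOXA10 had 1.07, 1.03, 0.88 and 0.42, again lowest on the siRNA negative control array. HOXA13 had -2.20, -2.47, -2.27 and -1.85, highest on that array.

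**Figure D2:**
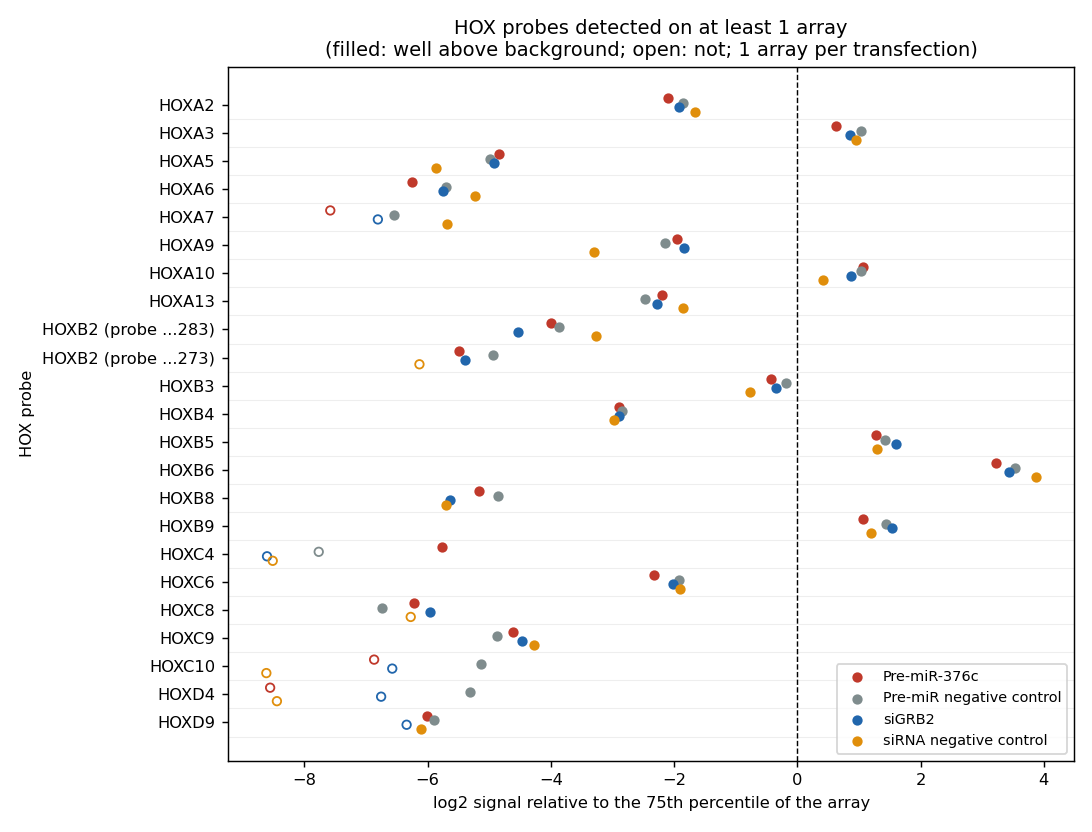
Level (log2 signal minus log2 75th percentile signal, horizontal axis) of the 23 HOX probes detected on at least 1 array, 1 row a probe and 1 colour an array; filled points are well above background and open points are not. The siRNA negative control points lie outside the other 3 in 13 of the 16 probes detected on all 4 arrays, furthest for HOXA9, and levels are to be compared along a row only.

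Over the 3 arrays other than siRNA negative control, the range of a HOX probe's level had a median of 0.32 and ran from 0.05 (HOXB4) to 0.79 (HOXB8), beside a median of 0.31 over all probes detected on all 4 arrays. The siRNA negative control array lay outside these 3 for 13 of the 16 HOX probes, 81.2%, beside 75.4% of all probes. It was above them for 7 (HOXA2, HOXA6, HOXA13, HOXB2, HOXB6, HOXC6 and HOXC9) and below them for 6 (HOXA5, HOXA9, HOXA10, HOXB3, HOXB4 and HOXB8). The exceptions were HOXA3, HOXB5 and HOXB9. The scanner software's own error of a difference between arrays, which covers the spot measurement and not the culture, was 0.20 to 0.39 on the log2 scale for these probes, with a median of 0.21.

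The first comparison asks what differed with Pre-miR-376c. Probes detected on either array of a pair were tested, and a difference of at least 2-fold was counted. When only 1 array detected it, the difference is a bound against the higher of its own signal and the lowest detected signal on the dim array. With Pre-miR-376c against Pre-miR negative control, 3 of 23 HOX probes differed at least 2-fold (13.0%), beside 3.04% of the 24384 probes tested. All 3 were bounds on dim genes: HOXC4 was higher and HOXC10 and HOXD4 were lower. Among probes detected on only 1 of these arrays, 16.8% of 2149 differed at least 2-fold, and 3 of the 4 HOX probes of that kind did.

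None of the 16 HOX probes detected on all 4 arrays differed 2-fold in this comparison. Their log2 differences ran from -0.55 (HOXA6) to 0.27 (HOXC9), 11 lower and 5 higher, with a median of -0.20 beside -0.03 over all 21239 probes. With each array scaled to its median in place of its 75th percentile the HOX median was -0.08, beside 0.09 over all probes. HOXA3 was lower by 0.42 and HOXC6 lower by 0.40 with Pre-miR-376c. HOXB9 was lower by 0.36, HOXB8 by 0.32 and HOXB6 by 0.30. The higher ones were HOXC9, HOXA13 (0.26), HOXA9 (0.20), HOXA5 (0.15) and HOXA10 (0.04). The SD over probes was 0.26 for HOX and 0.36 for all probes. Regardless of sign, the median size of a difference was 0.26 for HOX and 0.20 for all probes.

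Against siRNA negative control, 3 of 21 HOX probes differed at least 2-fold with Pre-miR-376c (14.3%, beside 7.26% of all probes). HOXC10 and HOXD4 were detected on neither array of this pair, so they could not be counted here. HOXA9 was 2.53-fold higher, HOXA5 2.04-fold higher and HOXA6 2.02-fold lower. The scanner error of the log2 difference was 0.21, 0.34 and 0.37, so HOXA5 (1.03) and HOXA6 (-1.01) passed the limit by less than their error. Both were dim, with signals of 29.6 for HOXA5 on the siRNA negative control array and 27.1 for HOXA6 with Pre-miR-376c. The lowest signals well above background there were 21.5 and 24.4. Of HOXA9, HOXA5 and HOXA6, none passed 2-fold against Pre-miR negative control, where the log2 differences were 0.20, 0.15 and -0.55. HOXA3, HOXB6 and HOXC6 kept their direction against either control, at -0.32, -0.64 and -0.42 against siRNA negative control, and HOXB8 (0.53) and HOXC9 (-0.34) turned. The median over the 16 was -0.22, beside 0.09 for all probes.

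**Figure D3:**
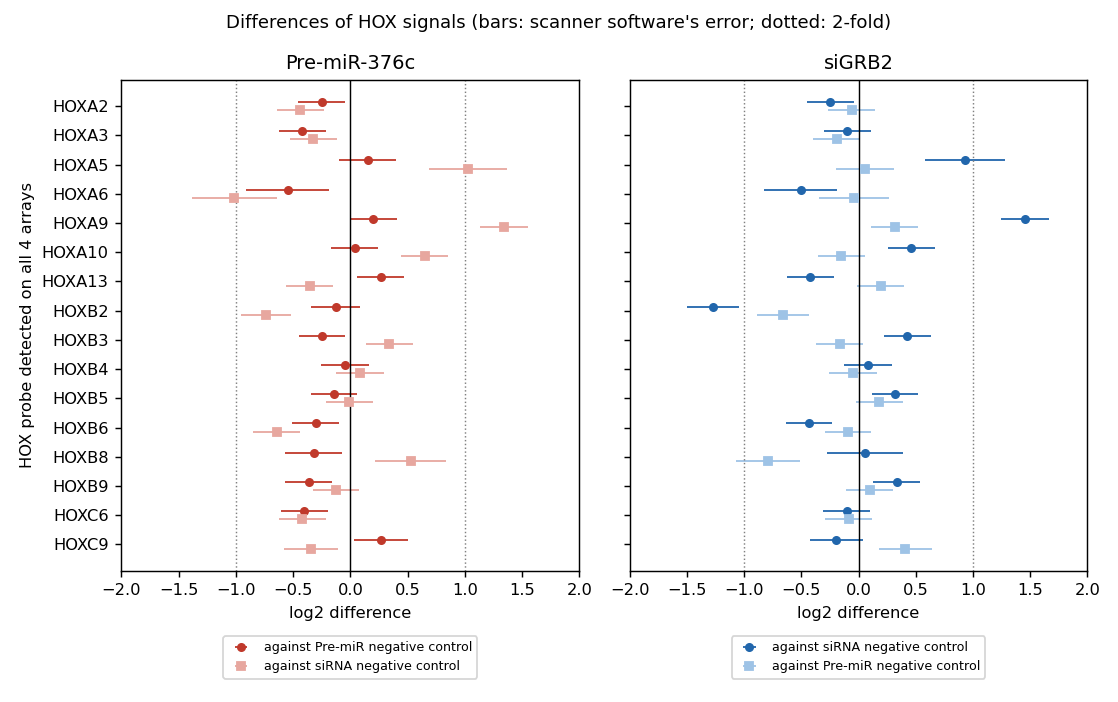
Log2 difference (horizontal axis) of the 16 HOX probes detected on all 4 arrays for Pre-miR-376c (left) and siGRB2 (right), each against both negative controls; bars are the scanner software's error of the difference and dotted lines mark 2-fold. HOXA9 and HOXB2 pass 2-fold with siGRB2 against siRNA negative control (1.45 and -1.27) and come short of it against Pre-miR negative control (0.32 and -0.66).

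With siGRB2 against siRNA negative control, 2 of 20 HOX probes differed at least 2-fold (10%), beside 9.82% of the 23368 probes tested. HOXA9 was 2.74-fold higher (log2 difference 1.45, scanner error 0.21), and HOXB2 was 2.41-fold lower by probe A_23_P107283 (-1.27, scanner error 0.23). Against Pre-miR negative control the same probes gave 0.32 for HOXA9 and -0.66 for HOXB2. The direction was the same with either control, and the 2-fold difference was found with siRNA negative control alone. With normexp background correction the HOXB2 value against siRNA negative control turned to 2.40, and the median of all probes moved from 0.15 to 1.03. HOXA5 came next at 0.93, and was 0.06 against Pre-miR negative control.

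The 16 HOX probes split evenly in this comparison, 8 lower and 8 higher, with a median of -0.02 beside 0.15 over all probes. This scale matters here: scaled to the array medians, the HOX median was -0.30 and that of all probes -0.13. Among the higher ones, HOXA10 had 0.46, HOXB3 0.43, HOXB9 0.33 and HOXB5 0.32. Set against Pre-miR negative control, HOXA10 (-0.15) and HOXB3 (-0.16) turned, and HOXB9 (0.10) and HOXB5 (0.18) did not. Among the lower ones, HOXA6 had -0.51, HOXB6 -0.43, HOXA13 -0.42 and HOXA2 -0.25. With the other control HOXA13 turned to 0.19, and HOXA6 (-0.04), HOXB6 (-0.09) and HOXA2 (-0.06) were near 0. HOXA3 and HOXC6 were both at -0.10, and HOXB4 and HOXB8 were at 0.08 and 0.06. Against Pre-miR negative control, 2 of 22 HOX probes differed at least 2-fold with siGRB2 (9.09%, beside 2.94% of all probes), the dim HOXC10 and HOXD4, and the 16 ran from -0.79 (HOXB8) to 0.41 (HOXC9) with a median of -0.05.

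The siGRB2 and Pre-miR-376c arrays, set directly against each other, had no HOX probe at least 2-fold apart of 20 tested, beside 2.9% of all probes. The 16 probes ran from -0.53 (HOXB2) to 0.51 (HOXA6) as siGRB2 minus Pre-miR-376c, 6 lower and 10 higher with siGRB2, with a median of 0.13 beside 0.06 for all probes. HOXB9 was 0.46 higher with siGRB2, HOXB5 0.33 and HOXC6 0.32. HOXB8 was 0.47 lower and HOXA10 0.19 lower.

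The negative controls were also set against each other. With siRNA negative control against Pre-miR negative control, 4 of 22 HOX probes differed at least 2-fold (18.2%), beside 9.17% of all probes, all 4 lower with siRNA negative control. HOXA9 was 2.20-fold lower by measured values. The other 3 were bounds, for the HOXB2 probe A_33_P3271273 (at least 2.28-fold), HOXC10 (at least 2.26-fold) and HOXD4 (at least 2.01-fold). The HOXB2 probe detected on all 4 arrays, A_23_P107283, went the other way, 0.61 higher with siRNA negative control. The differences of HOXA5 (-0.87), HOXB8 (-0.85) and HOXA7 (0.86) came next. The SD over the 16 HOX probes was 0.57, the same as over all probes, and larger than the 0.26 of the Pre-miR-376c comparison. Regardless of sign, the median size of a difference was 0.53 for HOX and 0.37 for all probes.

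The genes detected on 1 to 3 arrays lay near background, and their signals are given in scanner units in the same order of arrays. HOXC4, which acts in lymphocytes, had signals of 38.1, 12.3, 5.12 and 4.70 and was well above background with Pre-miR-376c alone, at least 2.34-fold higher than with Pre-miR negative control. Against siRNA negative control the bound was 1.47-fold, and against siGRB2 1.59-fold. HOXC10, a gene of lumbar motor neurons, had 17.7, 76.1, 20.9 and 4.38. HOXD4, a gene of the hindbrain and spinal cord, had 5.48, 67.6, 18.5 and 4.93. Both were high on 1 array, Pre-miR negative control, and low on the other 3. Relative to that array HOXC10 was lower by at least 2.40-fold on the Pre-miR-376c array and at least 2.45-fold on the siGRB2 array. For HOXD4 these bounds were 2.13-fold and 2.17-fold. Each of these genes was measured by 1 spot per array.

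HOXA7, which acts in the thoracic skeleton and in keratinocytes, had 10.8, 28.8, 17.8 and 33.5. It was well above background on both negative control arrays and on neither treated one, where the weaker flag, which asks only for a signal above background, was still met. With siGRB2 it was at least 1.68-fold lower than with siRNA negative control, and with Pre-miR-376c at least 1.65-fold lower than with that control. Against Pre-miR negative control no fold could be given for either treatment, since its signal there was under the bound of the treated arrays after scaling. HOXC8, a thoracic and brachial patterning gene, had 27.8, 25.0, 32.0 and 22.2, and HOXD9, which acts in the limb and lumbar spinal cord, had 32.2, 45.1, 24.6 and 24.9. None of their differences or bounds reached 2-fold. HOXB7 was well above background on no array, with 5.42, 20.0, 5.22 and 4.88, and met the weaker flag with Pre-miR negative control alone.

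**Figure D4:**
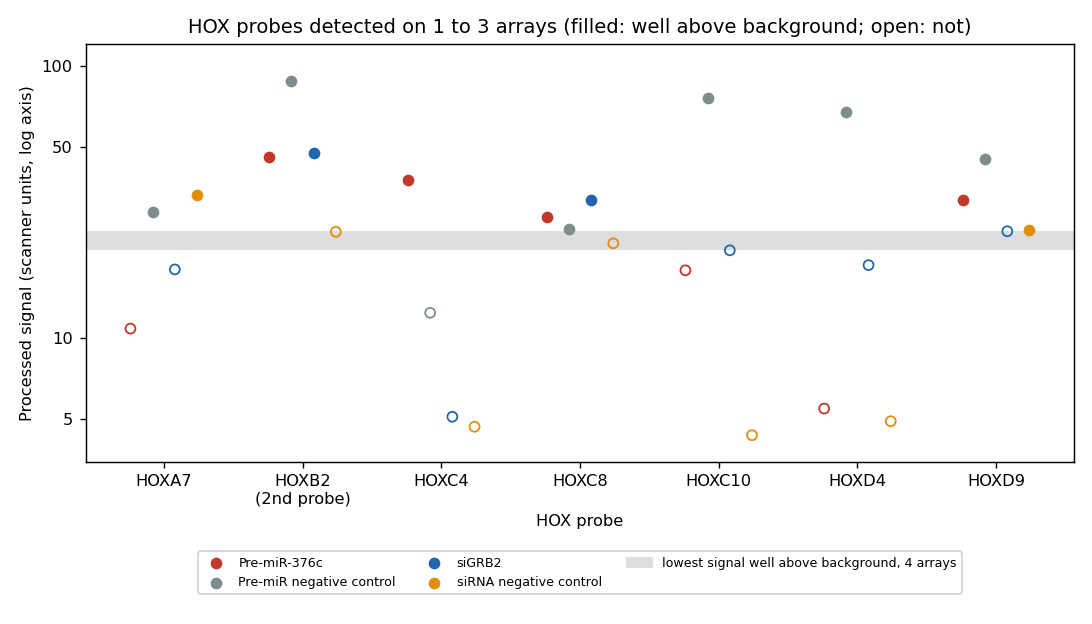
Processed signal (scanner units, log axis) on each array of the 7 HOX probes detected on 1 to 3 arrays; filled points are well above background, open points are not, and the grey band is the range over the arrays of the lowest signal well above background (21.2 to 24.4). HOXC4 stands above the band with Pre-miR-376c alone, and HOXC10 and HOXD4 with Pre-miR negative control alone.

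Where a gene had 2 probes, they did not give the same account. For HOXA9 and HOXA10 one probe was detected on all 4 arrays and the other on none, and for HOXD9 one was detected on 3 and the other on none. For HOXB2 both were detected, and they pointed in opposite directions with siGRB2 against siRNA negative control. Probe A_23_P107283 gave -1.27, and probe A_33_P3271273, not well above background on the siRNA negative control array, was at least 1.68-fold higher with siGRB2. The levels of the latter were -5.49, -4.94, -5.39 and -6.13. Against Pre-miR negative control both were lower with siGRB2, at -0.66 and -0.44. Taking the mean over the probes of a gene, no HOX gene differed 2-fold between siGRB2 and siRNA negative control. That mean took in probes detected on no array. For HOXA9 it joined the detected probe with a probe at -8.41 with siGRB2 and -8.30 with siRNA negative control. It thus could not tell whether HOXA9 differed 2-fold. Where on the transcripts the probes lie was not analysed here.

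Genes that work with the HOX clusters were read from lists chosen as background biology. Their counts past 2-fold stand beside the same shares of all probes, 3.04% (Pre-miR-376c against its control) and 9.82% (siGRB2 against its control). Of the TALE cofactors, 7 of the 8 genes with a probe were detected on all 4 arrays (8 of 10 probes, beside 62.2% of all probes). In that list 0 of 10 probes differed 2-fold with Pre-miR-376c against its control and 1 with siGRB2 against its control. Of the homeobox genes linked or related to the clusters, 7 of 19 were detected on all 4 arrays (7 of 20 probes) and 11 on none. The pancreatic factor PDX1 and 5 DLX genes were among the latter. EVX1, which lies at the end of HOXA beyond HOXA13, had levels of 0.71, 0.93, 0.87 and -0.17, with a difference of 1.04 for siGRB2 against siRNA negative control and -0.06 against Pre-miR negative control. A probe of CDX1, detected on the siRNA negative control array alone, was at least 5.31-fold lower with siGRB2 than there, whereas the other CDX1 probe, detected on all 4 arrays, was 0.82 higher. No fold could be given for the former against Pre-miR negative control, and the latter was 0.21 higher. CDX2, an intestinal regulator of HOX genes, had -4.70, -4.58, -4.57 and -3.68, and was 1.02 lower with Pre-miR-376c than with siRNA negative control and 0.12 lower than with Pre-miR negative control.

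Polycomb genes were broadly detected, with all 14 PRC2 and all 25 PRC1 probes detected on all 4 arrays, beside 62.2% of all probes. All 10 PRC2 genes with a probe were detected on all 4 arrays, and of 14 probes 0 differed 2-fold with Pre-miR-376c and 1 with siGRB2 against their own controls. That was EZH2, the methyltransferase that silences HOX genes, with levels of 0.99, 0.74, 0.81 and 1.86, a difference of -1.05 against siRNA negative control and 0.07 against Pre-miR negative control. All 17 PRC1 genes were detected on all 4 arrays, with 0 of 25 probes past 2-fold for Pre-miR-376c and 8 of 25 for siGRB2 against their own controls, beside 3.04% and 9.82% of all probes. Among those higher with siGRB2 were PCGF1 (1.01), PCGF3 (1.06), PHC2 (1.15) and 2 probes of PHC1 (1.11 and 1.04), and lower were PCGF5 (-1.05) and PHC3 (-1.15). Against Pre-miR negative control 1 of these probes passed 2-fold with siGRB2, a PHC1 probe at 1.23. PHC1 had 2 more probes, at -0.99 and 0.31 with siGRB2 against siRNA negative control, so its probes did not share a direction, and the former was 1.27 lower with Pre-miR-376c than on that array. The other probe of PHC2 gave 0.26.

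Trithorax genes and H3K27 demethylases were detected on all 4 arrays for 12 of 13 (22 of 23 probes, beside 62.2% of all probes). Of 23 probes, 0 passed 2-fold for Pre-miR-376c and 2 for siGRB2 against their own controls. KMT2A, the methyltransferase that maintains HOX expression, had levels of -4.29, -3.77, -4.15 and -5.20 by 1 of 4 probes, a difference of 1.04 with siGRB2 against siRNA negative control and -0.39 against Pre-miR negative control. Its other probes gave 0.95, 0.63 and 0.04 against siRNA negative control. PSIP1, a tether of KMT2A complexes on chromatin, was at -1.01 and -0.45 by its 2 probes, and at -0.23 and 0.02 against Pre-miR negative control. The demethylase KDM6A was 1.13 lower with Pre-miR-376c than with siRNA negative control by 1 probe and 0.24 lower by the other, and against Pre-miR negative control they gave -0.40 and 0.24. Of the retinoid pathway genes, 13 of 17 were detected on all 4 arrays (16 of 24 probes) and ALDH1A2, CYP26B1 and CYP26C1 on none. Their 18 tested probes had 0 past 2-fold for Pre-miR-376c and 5 for siGRB2 against their own controls, beside the 9.82% of all probes for siGRB2. The receptors RARA (1.17 by 1 probe and 0.17 by the other, below 2-fold) and RARB (1.10, and at least 2.09-fold by its other called probe) and the retinoic acid binding protein CRABP2 (1.07 and 0.68 by its 2 probes) were higher with siGRB2, and the retinol receptor STRA6 was lower (-1.14 and -0.82). CRABP2 was lowest and STRA6 highest on the siRNA negative control array. STRA6 had -3.21, -2.72, -2.48 and -1.34. RDH10, which makes retinal, was 1.15 lower with Pre-miR-376c than with siRNA negative control and 0.47 lower than with Pre-miR negative control. No retinoid probe was 2-fold apart between siGRB2 and Pre-miR negative control.

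Of the long non-coding and antisense genes of the clusters, 4 of 20 had a probe named through its accession (HOTAIR, HOXA11-AS, HOXB-AS3 and HAGLR), and all 4 were detected on no array. HOTAIR and HOXA11-AS lie beside HOXC11 and HOXA11, genes that were also detected on no array.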

How the data were processed

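The authors hybridized single-dye labelled RNA of each culture to 1 Agilent human 4×44 K array. They deposited the spot intensity values of Agilent Feature Extraction (version 10.7.3.1 in the file headers) with background, error and quality columns, and a log2 table that their methods describe as scaled to the 75th percentile in GeneSpring GX. For 99.5% of the probes on every array, the deposited log2 values differed from the scanner values, averaged over spots, by 1 constant to within 0.01, and the column medians lay between -3.59 and -3.36. Every column of that table was assigned to a sample (0 left over). The arrays shared 1 slide, which therefore gave no block.

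Processed intensity was converted to log2 and each array's 75th percentile, taken over spots other than controls, was subtracted, using numpy (2.4.6) and pandas (2.3.3) in Python (3.11.15). Spots flagged as outliers (289 to 329 an array) were dropped, spots of one probe were averaged, and 0 spots were saturated. Detected probes numbered 21811 to 24119 per array. With so few arrays the precision of a condition is unknown. Alternatives used R (4.3.3) and limma (3.58.1), and figures matplotlib (3.10.9). The scanner headers name another build than the RefSeq tables (GRCh38.p14), which gave names for 25422 of 34127 probes and the sequences shown. The calls were tested on simulated data. By rule, HOX genes were named by their number of detecting arrays, and a few genes that the rules would name are not reported here. Levels or differences were given for those detected on all 4 or at least 2-fold apart in any pair, for HOXA7 and GRB2, and for list members detected on all 4 arrays and 2-fold apart in any pair. HOXB7, HOXC8 and HOXD9 were given values after these were seen. The members and lists were chosen with earlier results of these data known.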

Additional observations from a re-analysis of the deposited data

How the results depend on the processing

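No paired analysis was possible because every transfection had a single array and the labels give only replicate 1. Without replicates no error of a condition could be set beside any value, and dim genes rested on 1 spot per array. For Pre-miR-376c against Pre-miR negative control, the 3 HOX probes past 2-fold became 0 with normexp background correction, 0 when both arrays had to detect a probe, 0 with a 3-fold limit, 0 against the mean of both negative controls and 5 (of 31) with the weaker detection flag, which tests only for a signal above background. For siGRB2 against siRNA negative control, the 2 became 13 with normexp, 8 (of 28) with the weaker flag and 5 with a 1.5-fold limit. With a 3-fold limit, the mean over probes of a gene (undetected ones included) or the mean of both controls, they became 0. Between the negative controls, the 4 became 1 with quantile normalization, 1 with a median shift, 0 with normexp, 1 when both arrays had to detect a probe, 12 and 0 with limits of 1.5-fold and 3-fold, and 2 with the mean per gene. Normexp without spots whose local background was over 10 times the median, added after the data were seen, gave 0, 1 and 0. The median for Pre-miR-376c (-0.20) became 0.20 over all 43 probes, undetected ones included. The median for siGRB2 (-0.02) became -0.30 with a median shift and 1.48 with normexp. The median of all probes moved from 0.15 to -0.13 and 1.03, and HOXB2 (A_23_P107283) turned to 2.40 with normexp. Normexp without spots of such high local background gave a siGRB2 median of -0.09, beside 0.07 over all probes. Detection was 16 and 22 genes, and 19 and 31 with the weaker flag. Of the differences of single probes, 231 of 329 alternative values stayed within the scanner error, and 45 changed sign, most against the other control (13) or with normexp (12). The 1 of these past 2-fold before was HOXB2. The causes were not tested.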
